A study of Homo sapiens with 23 samples.

Results

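The AP-1 family is described here through 10 genes: FOS, FOSB, FOSL1, FOSL2, JUN, JUNB, JUND, ATF3, BATF3 and MAFF. They were chosen by name, with earlier results of these data known. All 10 were among the 35438 genes of the deposited table, and all 10 passed the filter on low values that left 15657 genes tested. Poly(A) RNA was sequenced in bulk from 23 libraries of the human melanoma line WM989 A6-G3, which had been bottlenecked to single cells, and of 7 drug-resistant clones expanded from its colonies. Clones 7, 8 and 9 grew out under the BRAF inhibitor vemurafenib and were cultured with it at 1 µM. Clones 10, 11, 12 and 13 grew out under dabrafenib, another BRAF inhibitor, with trametinib, a MEK inhibitor, and were cultured with 250 nM and 2.5 nM of these drugs. Untreated WM989 A6-G3 cells were grown without drug. Resistance and the presence of drug therefore cannot be told apart, and neither can the drug arm and its drug. All groups carry the genotype label WT. Each resistant line is 1 clone. Each group had 3 libraries, except clone 11 with 2, labelled as biological replicates. The labels do not say whether these were separate cultures, so p-values may measure technical spread only.

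AP-1 is a family of transcription factors that bind DNA as dimers held together by leucine zippers. JUN proteins pair with themselves or with FOS proteins, FOS proteins need a JUN partner, and ATF3, BATF3 and the small MAF protein MAFF are related zipper proteins that pair within or near the family. FOS, FOSB, JUN, JUNB and ATF3 are immediate early genes, whose transcripts rise and decay quickly after growth factors or stress, whereas FOSL1 is a slower gene that depends on sustained ERK signaling. In melanoma, AP-1 is known for its part in the dedifferentiated, drug-tolerant state.

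The promoters of 4 immediate early members are shown because their transcripts moved together from library to library, and that of FOSL2 because it was the only member promoter with an AP-1 site. ATF3 also moved with these 4, but its promoters are not shown. RefSeq promoters of assembly GRCh38.p14, each from 250 bases before to 50 bases after the gene's start, were matched by symbol for 8 of the 10 members, with 10 promoters in all. FOSL1 and BATF3 had no entry. Each run reads 5′ to 3′ on the gene's strand, and capitals mark letters found by the motif search.
FOS, chr14:75278578-75278877, plus strand: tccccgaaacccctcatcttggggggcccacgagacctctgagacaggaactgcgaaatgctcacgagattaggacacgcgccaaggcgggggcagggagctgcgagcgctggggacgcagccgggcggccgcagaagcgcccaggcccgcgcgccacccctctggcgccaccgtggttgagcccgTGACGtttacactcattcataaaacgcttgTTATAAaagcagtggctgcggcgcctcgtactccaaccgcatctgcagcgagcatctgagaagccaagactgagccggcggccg
FOSB, chr19:45467746-45468045, plus strand: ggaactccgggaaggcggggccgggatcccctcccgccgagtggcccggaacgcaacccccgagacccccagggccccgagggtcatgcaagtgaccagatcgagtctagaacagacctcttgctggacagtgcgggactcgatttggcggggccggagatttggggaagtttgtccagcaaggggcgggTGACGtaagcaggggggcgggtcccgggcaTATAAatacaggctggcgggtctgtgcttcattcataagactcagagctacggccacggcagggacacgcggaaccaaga
JUN, chr1:58783998-58784297, minus strand: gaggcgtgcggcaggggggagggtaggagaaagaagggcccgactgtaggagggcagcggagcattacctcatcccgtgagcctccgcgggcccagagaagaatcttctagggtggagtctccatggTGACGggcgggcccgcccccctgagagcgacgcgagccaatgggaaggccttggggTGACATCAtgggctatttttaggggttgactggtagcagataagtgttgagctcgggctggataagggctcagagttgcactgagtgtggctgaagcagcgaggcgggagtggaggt
JUNB, chr19:12791236-12791535, plus strand: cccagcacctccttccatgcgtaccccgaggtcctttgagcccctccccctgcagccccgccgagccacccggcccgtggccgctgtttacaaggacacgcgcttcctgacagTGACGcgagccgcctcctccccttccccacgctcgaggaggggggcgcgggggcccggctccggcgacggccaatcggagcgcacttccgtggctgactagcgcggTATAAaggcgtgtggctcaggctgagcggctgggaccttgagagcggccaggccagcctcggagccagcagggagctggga
FOSL2, chr2:28392608-28392907, plus strand: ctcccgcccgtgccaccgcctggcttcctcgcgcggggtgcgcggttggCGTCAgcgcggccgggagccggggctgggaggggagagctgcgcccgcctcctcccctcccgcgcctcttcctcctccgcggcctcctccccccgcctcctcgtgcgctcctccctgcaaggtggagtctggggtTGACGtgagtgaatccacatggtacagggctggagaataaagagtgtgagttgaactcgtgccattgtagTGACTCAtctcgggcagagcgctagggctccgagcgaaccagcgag

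The search covered the AP-1 site TGAGTCA and the cAMP response element (CRE) TGACGTCA. It also covered the JUN-type site TGACATCA, the short CRE core TGACG, which lies inside the full CRE, and the TATA box core TATAA. Both strands were read. TGACATCA stood in the JUN promoter at -67 to -60 from the start and in 1 of the 2 ATF3 promoters, against 2.61% of the 35116 RefSeq promoters of the same length. TGACG stood in 7 of the 10 member promoters, against 24.6% of all, at -64 in FOS, -60 in FOSB, -137 in JUNB and -123 in JUN. It also stood in the promoters of FOSL2 and JUND and in 1 of MAFF, but in neither ATF3 promoter. The CRE stood in the promoters of JUND and MAFF, against 1.85% of all. The AP-1 site stood in FOSL2, as TGACTCA at 5 to 11 bases after the start, against 4.95% of all. TATAA or its complement was found in 5 of the 10, against 20.4% of all, among them FOS, FOSB and JUNB just before the start. These matches describe letters only.

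Levels are given as TPM, transcript levels per fixed library total and per transcript length, after a further scaling that lines up the libraries. This unit holds no record of sequencing depth. The depth behind each value is thus unknown, and the spread between libraries is the measure of error. Between 14415 and 24039 genes stood above 0 per library, with the fewest in clone 10 replicate 1. Mitochondrially encoded transcripts made up 6.74% to 15.6% of clone libraries and 20.6% to 21.2% of untreated libraries. Log2 fold changes are differences of log2(scaled TPM + 1), which understate the change of low genes. A call required an adjusted p (limma, Benjamini-Hochberg over all genes tested) under 0.05 together with a log2 fold change of at least 1 in size. In bulk RNA, fewer cells of a type and less RNA per cell cannot be told apart.

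The 7 clones were compared with untreated cells to ask what resistant lines from 1 parent share. The error of this test comes from libraries within groups and not from the spread between clones. Its p-values thus concern these 7 clones and do not extend to resistant lines in general. Averaged over the clones, 8 of the 10 members rose and none fell, while 10.9% of all genes tested were called higher and 7.91% lower. FOSL1 and MAFF were the exceptions, at log2 fold changes of 0.95 and -0.87, both under the fold minimum. The median log2 fold change was 1.91 over the 10 members and -0.01 over all genes. In each clone taken alone, 8 members rose in clone 7, 9 in clone 8, 7 in clone 9, 7 in clone 10, 5 in clone 11, 4 in clone 12 and 6 in clone 13, while the share of all genes called higher was 11% in clones 7 and 8, 11.5% in clone 9, 11.8% in clone 10, 11.7% in clone 11, 11.5% in clone 12 and 12.3% in clone 13. MAFF was the only member that fell in any clone, in clones 7, 8 and 11, where 8.54%, 9.29% and 9.53% of all genes were called lower. That share was 8.29% in clone 9, 10.5% in clone 10, 8.02% in clone 12 and 8.35% in clone 13. JUN, JUNB, JUND and FOSL2 rose in each of the 7 clones, as did 4.87% of all genes. In 5 members, these 4 and BATF3, each of the 20 clone libraries stood above the highest untreated library, which held for 14.5% of all genes.

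**Figure D1:**
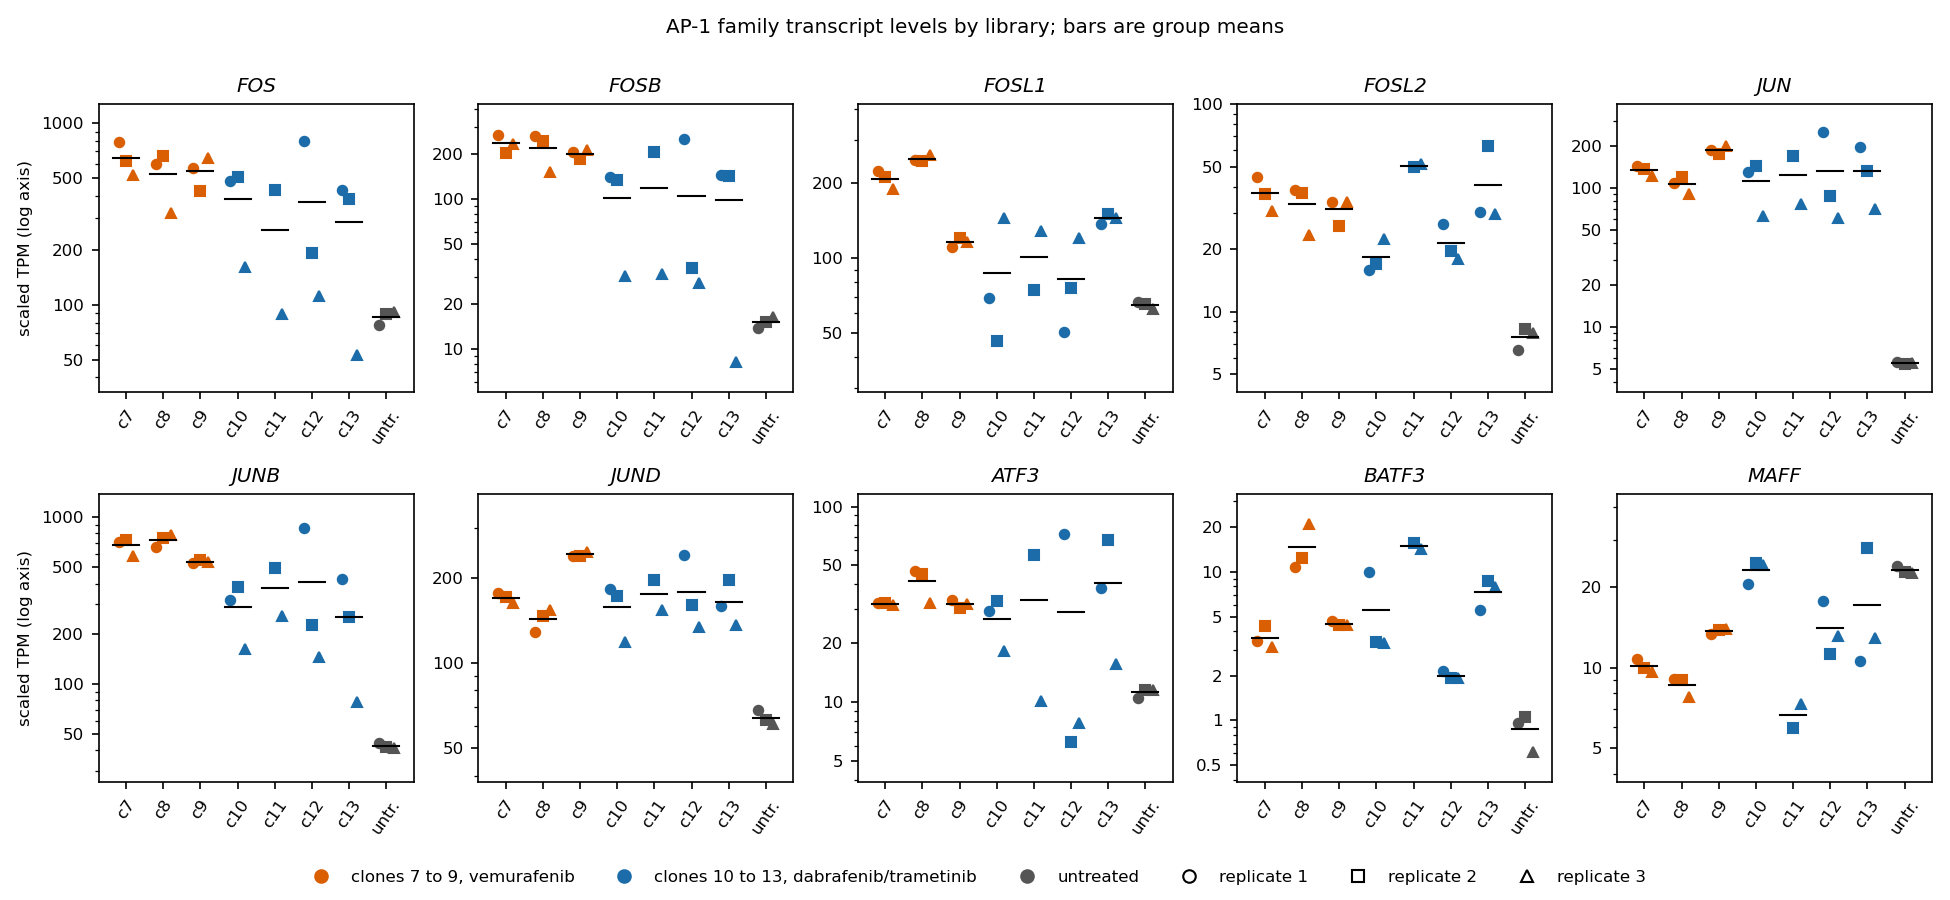
Scaled TPM of the 10 AP-1 members in each library (log axis), with clones 7 to 9 (vemurafenib, orange) and 10 to 13 (dabrafenib with trametinib, blue) left of untreated cells (grey). Symbols mark replicate numbers and bars are group means. The clone libraries of JUN lie between 60.0 and 249 TPM, far above the untreated ones near 5.51 TPM, while FOS, FOSB and ATF3 spread widely inside clones 10 to 13.

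Among the JUN proteins, the obligate partners of the FOS proteins, JUN changed most. JUN stood at 143, 137 and 122 TPM in clone 7, 107, 119.9 and 90.5 TPM in clone 8, and 186, 173 and 199 TPM in clone 9. In the other arm it stood at 130.1, 143 and 62.5 TPM in clone 10, 169 and 76.2 TPM in clone 11, 249, 87.3 and 60.0 TPM in clone 12, and 195, 131 and 70.8 TPM in clone 13. In untreated cells it stood at 5.63, 5.43 and 5.47 TPM, so the lowest clone library, clone 12 replicate 3, was far above them. Its log2 fold change was 4.25 for the mean of the clones (SE 0.32, limma adjusted p = 1.17e-09) and ran from 4.03 in clones 8 and 10 to 4.84 in clone 9.

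JUNB, a partner of FOS proteins that can hold back JUN, was the most abundant JUN transcript in every clone on average. Clone 13 had the lowest mean, 251 TPM, and clone 8 the highest, 733 TPM, against 42.4 ± 1.53 TPM in untreated cells (SD, n = 3). The lowest single clone library was clone 13 replicate 3 with 77.4 TPM, the highest was clone 12 replicate 1 with 862 TPM, the median was 511 TPM, and none overlapped the untreated range. The log2 fold change was 3.20 (SE 0.41, limma adjusted p = 1.92e-06). JUND, the JUN protein that most cells make at a steady level, had 119 to 247 TPM in clone libraries, with a median of 167 TPM, against 63.9 ± 3.98 TPM in untreated cells (SD, n = 3). Its log2 fold change was smaller, 1.42 (SE 0.14, limma adjusted p = 6.14e-08), with clones from 1.15 in clone 8 to 1.91 in clone 9.

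Among the FOS proteins, FOS and FOSB had the highest clone means in the vemurafenib clones and the widest spread in the others. FOS stood at 793, 617 and 516 TPM in clone 7, 598, 659 and 319 TPM in clone 8, and 569, 426 and 644 TPM in clone 9. It stood at 479.8, 503 and 161 TPM in clone 10, 428 and 88.9 TPM in clone 11, 797, 193 and 112 TPM in clone 12, and 429.6, 381 and 52.9 TPM in clone 13, against 77.3, 89.2 and 91.4 TPM in untreated cells. Thus 18 of 20 clone libraries lay above the highest untreated library and 1, clone 13 replicate 3, lay below the lowest. The log2 fold change was 2.00 (SE 0.56, limma adjusted p = 0.00531). FOS rose in clones 7, 8, 9 and 10, by 2.87, 2.53, 2.64 and 1.97 on the log2 scale, and had 1.18 in clone 11, 1.58 in clone 12 and 1.25 in clone 13, none of which passed the test (limma adjusted p from 0.0905 to 0.277). The call in clone 10 was lost without its replicate 1 or 2 or any 1 untreated library, with limma adjusted p up to 0.106. FOS was called in clone 12 without clone 12 replicate 3 or clone 13 replicate 3, with fold changes up to 2.18, and in clone 13 without its replicate 3, at 2.23 (limma adjusted p = 0.0128).

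FOSB, a close relative of FOS, moved with it. It stood at 269, 204 and 234 TPM in clone 7, 265, 243 and 151 TPM in clone 8, and 205, 184 and 211 TPM in clone 9. It stood at 140.0, 133 and 30.7 TPM in clone 10, 206 and 31.7 TPM in clone 11, 252, 34.6 and 27.5 TPM in clone 12, and 146, 143 and 8.26 TPM in clone 13, against 13.8, 15.2 and 16.3 TPM in untreated cells. All but 1 of the 20 clone libraries lay above the untreated range, and clone 13 replicate 3 lay below it. The log2 fold change was 2.83 (SE 0.70, limma adjusted p = 0.00198), with calls in clones 7, 8, 9 and 10 at 3.87, 3.74, 3.64 and 2.39. Clones 11, 12 and 13 had 2.36, 1.98 and 1.85 and did not pass the test (limma adjusted p from 0.0738 to 0.107). The clone 10 call was lost without its replicate 1 or 2 or any 1 untreated library, with limma adjusted p up to 0.120. Without clone 13 replicate 3, FOSB was called in clone 13 at 3.18 (limma adjusted p = 0.00318), and also in clones 11 and 12. In clone 11 it was called at 3.69 without replicate 3 of that clone, where the 1 library left is assumed to vary like the other groups, and also without clone 12 replicate 1.

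FOSL1, the FOS protein most tied to ERK output, had 46.3 to 261 TPM in clone libraries, with a median of 133 TPM, against 65.0 ± 2.33 TPM in untreated cells (SD, n = 3). It rose in clones 7, 8 and 13, with means of 209, 251 and 145 TPM and log2 fold changes of 1.67, 1.93 and 1.14 (limma adjusted p = 0.000169, 3.22e-05 and 0.00445). Clones 9, 10, 11 and 12 had 0.82, 0.25, 0.58 and 0.25 and were not called. The mean over the clones was 0.95 (SE 0.23, limma adjusted p = 0.00182), just under the fold minimum, and reached 1.00 without clone 10 replicate 2, 1.01 without clone 11 replicate 2 and 1.13 with the TPM as deposited. FOSL2 was the least abundant of the 4 by group means. In replicate 3 of clones 11 and 13, however, FOSB was lower, at 31.7 and 8.26 TPM, against 51.5 and 29.5 TPM of FOSL2. FOSL2 had 15.9 to 62.6 TPM in clone libraries, with a median of 30.4 TPM, against 7.57 ± 0.885 TPM in untreated cells (SD, n = 3), with no overlap. Its log2 fold change was 1.91 (SE 0.19, limma adjusted p = 5.23e-08), lowest in clone 10 at 1.17 and highest in clone 11 at 2.60.

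Among the other partners, ATF3, a stress-induced zipper protein, averaged between 26.7 and 41.4 TPM in the clones, against 11.2 ± 0.578 TPM in untreated cells (SD, n = 3). Its clone libraries ran from 6.24 to 72.4 TPM with a median of 32.2 TPM, 17 of 20 above and 3 below the untreated range. The log2 fold change of 1.26 (SE 0.51) passed narrowly (limma adjusted p = 0.0423). The call was lost on leaving out any 1 of 14 libraries: clone 7 replicates 1, 2 and 3, clone 8 replicates 1 and 2, clone 9 replicates 1 and 3, clone 10 replicate 2, clone 11 replicate 2, clone 13 replicates 1 and 2, or untreated replicates 1, 2 and 3. Over all single omissions the limma adjusted p ran from 0.0130 to 0.120. ATF3 passed the call in clone 8, at 1.78 (limma adjusted p = 0.0353), while clones 13, 7, 9, 10, 11 and 12 had 1.54, 1.43, 1.42, 1.14, 1.05 and 0.46 and did not. No pair of clones differed in ATF3 by limma. The call in clone 8 was lost without clone 8 replicate 1 or 2 or any 1 untreated library, with adjusted p up to 0.0823, whereas clones 7, 9, 10 and 13 gained one without clone 12 replicate 1. In clone 13 ATF3 was also called without clone 11 replicate 2 or 3 or clone 13 replicate 3, at up to 2.09.

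BATF3, a JUN partner best known from dendritic cells, was the least abundant member on average over the clones. It stood at 15.7 and 14.2 TPM in clone 11, 10.7, 12.5 and 20.9 TPM in clone 8, and 2.15, 1.94 and 1.93 TPM in clone 12, with the remaining clone libraries between 3.13 and 10.0 TPM, against 0.963, 1.06 and 0.615 TPM in untreated cells. All clone libraries were above the untreated ones, clone 12 by the least. The log2 fold change was 1.92 (SE 0.21, limma adjusted p = 2.62e-07). BATF3 rose in 6 clones, and clone 12 had 0.68 (limma adjusted p = 0.0529), which became 1.13 and was called with a pseudocount of 0.1. Immune markers were read beside it. The sum of 7 of them was 12.2 to 14.9 TPM in clone 8 and 12.1 and 14.0 TPM in clone 11, the clones with the most BATF3, and 4.34 to 5.06 TPM in clone 12, the clone with the least. It was 11.9, 3.27 and 2.92 TPM in clone 10 replicates 1, 2 and 3, where BATF3 was 10.0, 3.35 and 3.33 TPM. Clone 10 replicate 1 had the fewest genes above 0 of all libraries. The sum was 7.41 to 8.55 TPM in clone 7, 6.92 to 8.74 TPM in clone 9 and 8.62 to 11.6 TPM in untreated cells, which had the least BATF3. Over all clone libraries the sum ran from 2.92 to 14.9 TPM. The libraries of clone 13, where BATF3 averaged 7.36 TPM, lay within that range and are not listed singly. CSF1R, the receptor of macrophage growth factor, had 0.437 to 9.20 TPM in clone libraries and 0.355 to 0.430 TPM in untreated libraries, and PTPRC, the common leukocyte antigen, had 0.615 to 4.97 TPM in clone libraries and 1.15 to 1.36 TPM in untreated libraries. CD3E, a defining marker of T cells, had at most 0.0232 TPM in clone libraries and 0.0321 TPM in untreated libraries. FCER1G and LYZ were lower in the clones. FCER1G had 1.25 to 4.81 TPM in clone libraries and 5.99 to 8.75 TPM in untreated libraries, and LYZ had at most 0.765 TPM and 0.799 to 1.15 TPM. The part of these markers in the BATF3 levels was not tested.

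MAFF, a small MAF protein without an activation domain, ran against the others. It had 5.95 and 7.31 TPM in clone 11, 9.06, 9.00 and 7.78 TPM in clone 8, and 10.8, 9.93 and 9.67 TPM in clone 7, against 24.1, 22.8 and 22.6 TPM in untreated cells. It fell in these 3 clones, by 1.67, 1.33 and 1.12 on the log2 scale (limma adjusted p = 2.29e-05, 7.5e-05 and 0.000464). In clone 10 its 20.5, 24.7 and 24.2 TPM overlapped the untreated range (log2 fold change -0.01, limma adjusted p = 0.99), and clones 9, 12 and 13 had -0.71, -0.71 and -0.53. Clones 9 and 12 passed on p (limma adjusted p = 0.0149 and 0.0156) and missed only the fold minimum. All libraries of these 2 clones lay below the untreated range. Clone 13 overlapped it and did not pass on p (limma adjusted p = 0.0621). The plot of fold changes by clone sets the members side by side.

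**Figure D2:**
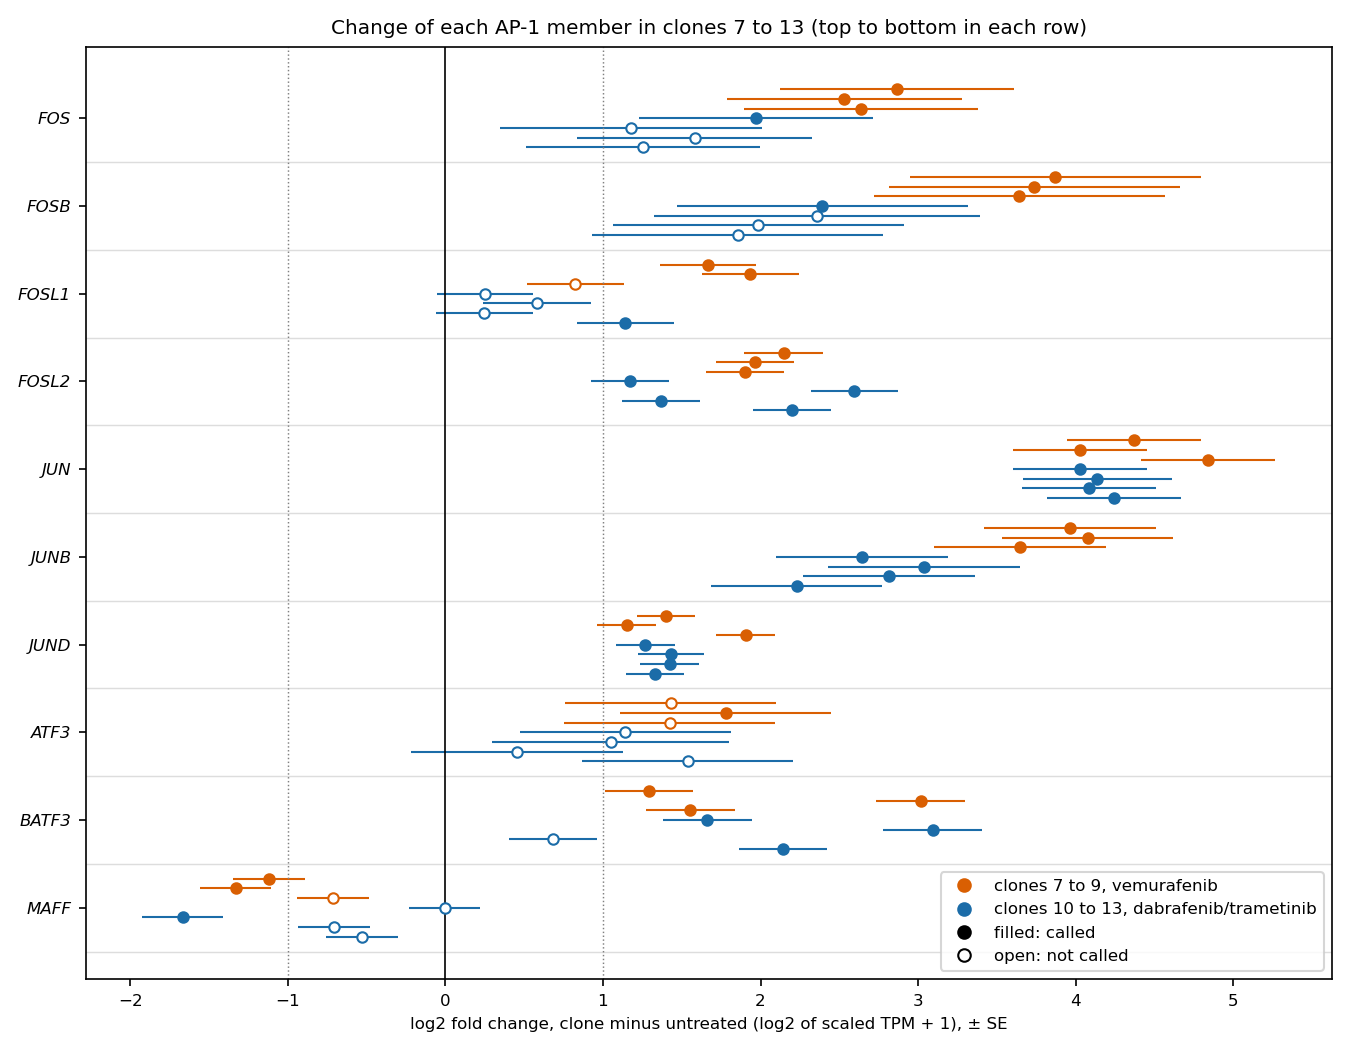
Log2 fold change of each member in clones 7 to 13 over untreated cells, with standard errors from the limma fit. Filled points passed the call. JUN, JUNB, JUND and FOSL2 are filled in all 7 clones, MAFF is filled below 0 in clones 7, 8 and 11, and the widest error bars belong to FOSB, FOS and ATF3.

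The makeup of the FOS and JUN families differed between clones and untreated cells, as shares of summed TPM, a scale that accounts for transcript length. The 4 FOS genes summed on average to between 529.7 and 1124 TPM in the clones, lowest in clone 11 and highest in clone 7, against 174 TPM in untreated cells. By group means, FOSB made up 14.2% to 22.5% of this sum in the clones and 8.68% in untreated cells, and FOSL1 made up 13.2% to 33.5% in the clones and 37.5% in untreated cells. Single libraries went against these means. FOSL1 made up 40.5%, 42.8%, 43.3% and 61.6% in replicate 3 of clones 10, 11, 12 and 13, against 35.1% to 40.7% in untreated libraries, and its mean in clone 13 had an SD of 24.3. FOSB made up 8.55% in clone 10 replicate 3 and 3.50% in clone 13 replicate 3, against 8.41% to 9.14% in untreated libraries. The mean share of FOS, 43.0% to 61.6% in the clones, lay on both sides of the 49.4% in untreated cells. The 3 JUN genes summed on average to between 548 and 983 TPM in the clones, against 112 TPM in untreated cells. JUND, the largest of the 3 in untreated cells at 57.1%, made up 14.6% to 34.1% in the clones. By group means, JUNB made up 41.7% to 74.6% in the clones and 38.0% in untreated cells, and JUN 10.8% to 24.2% in the clones and 4.93% in untreated cells. The JUNB mean of clone 13, 41.7% with an SD of 13.8, held a replicate 3 at 27.2%, below the 37.4% to 38.4% of untreated libraries. These shares follow from the levels above and were not tested separately.

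**Figure D3:**
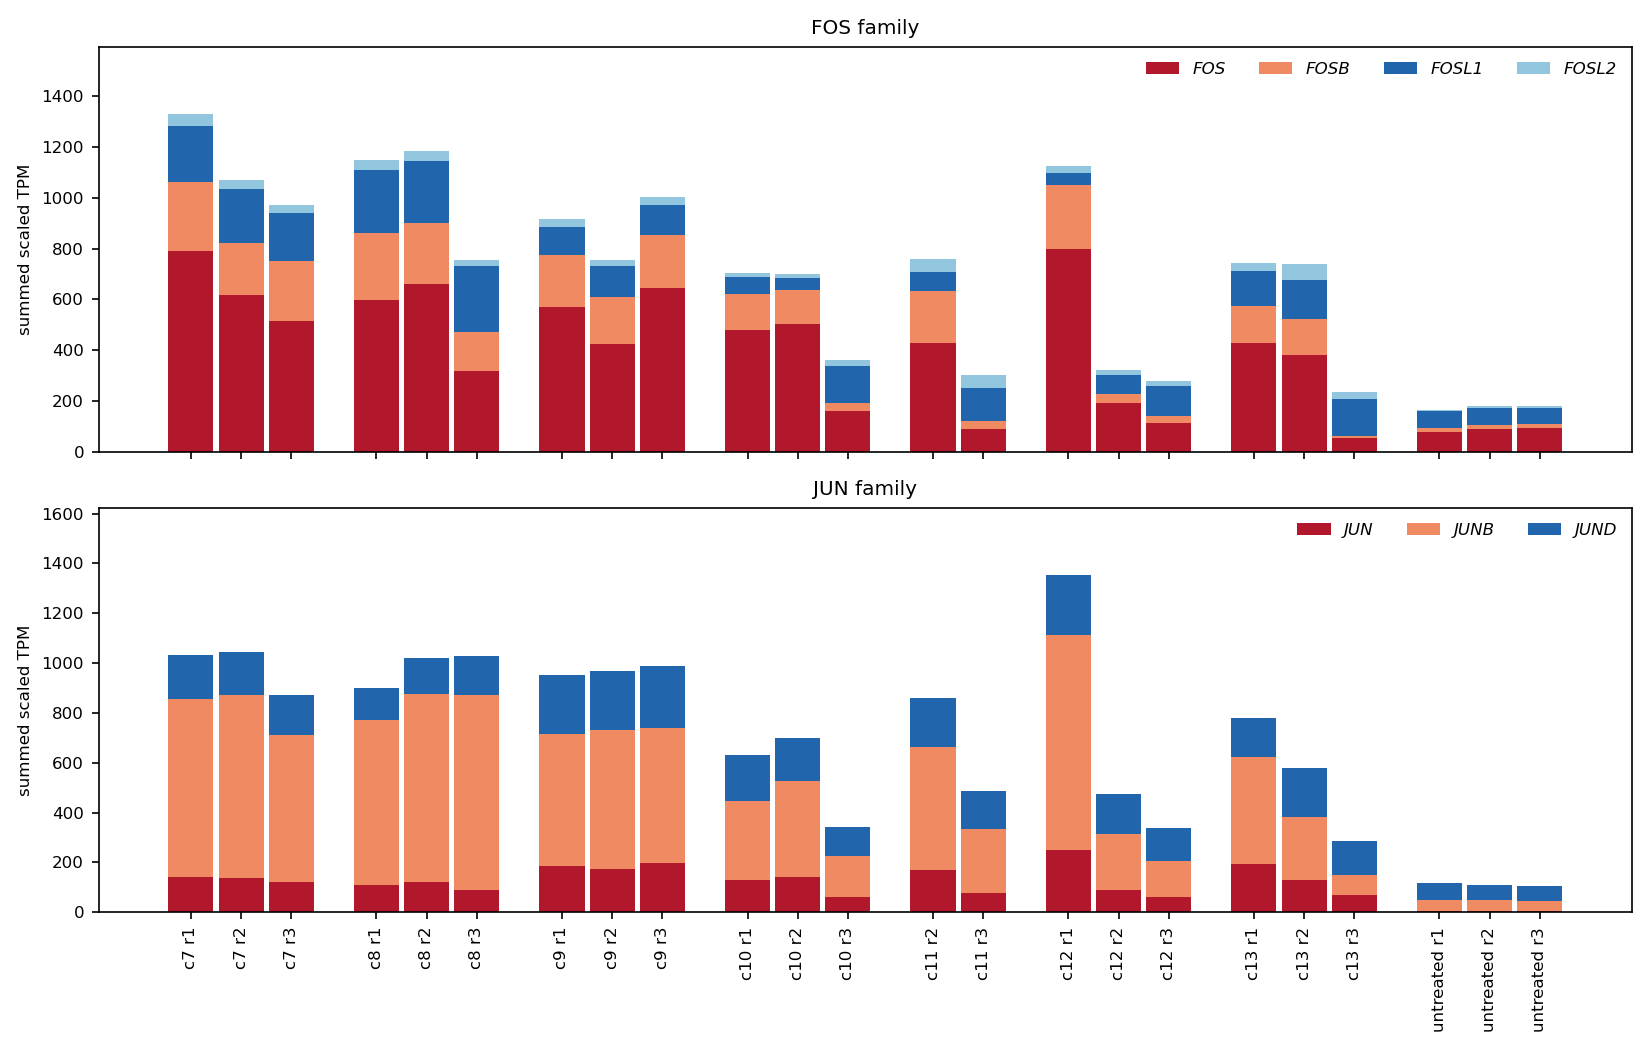
Summed scaled TPM of the FOS genes (top) and JUN genes (bottom) in each library, divided by gene, with clone (c) and replicate (r) numbers along the axis and untreated libraries at the right. Bars start at 0. In replicate 3 of clones 10 to 13 the FOS family sum is 236 to 359.6 TPM, and in clone 12 replicate 1 it is 1127 TPM.

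The spread between libraries of the same group was itself unequal across the family. The within-group SD of log2 values was 1.25 for FOSB, 1.01 for FOS, 0.91 for ATF3, 0.73 for JUNB and 0.57 for JUN, against a median of 0.23 over all genes tested, and the SD of FOS was larger than that of 99.3% of genes. JUND, at 0.24, lay near that median, and FOSL1 had 0.41, BATF3 0.36, FOSL2 0.33 and MAFF 0.29. The spread came from the clones: the pooled SD of FOS was 1.08 in the clones (13 degrees of freedom) and 0.13 in untreated cells. The limma fit shares 1 spread over all groups, so the errors of FOS, FOSB and ATF3 are wider than the untreated libraries alone would give. For FOS the SD of log2 values was 0.31, 0.57 and 0.31 in clones 7, 8 and 9, and 0.93, 1.59, 1.46 and 1.68 in clones 10, 11, 12 and 13. The shared error of FOS is thus too wide for clones 7 to 9 and too narrow for clones 11 to 13, and calls in single clones depend on it. The highest clone library of FOS exceeded the lowest of the same clone 8.12-fold in clone 13, and that of FOSB 17.6-fold in clone 13. For ATF3 it was 11.6-fold, in clone 12.

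Looked at by replicate number, the low libraries were mostly those numbered 3, a number singled out after the values were seen. In clone 12, replicate 2 was low as well, with FOS at 193 TPM and FOSB at 34.6 TPM, against 797 and 252 TPM in replicate 1. Its ATF3, 6.24 TPM, was below the 7.85 TPM of replicate 3. In all 4 clones under dabrafenib with trametinib, replicate 3 was the lowest library for FOS, FOSB, JUN, JUNB and JUND. There its FOS level was 0.131 to 0.327 times the geometric mean of the other libraries of its clone (1 library in clone 11), its FOSB level 0.0572 to 0.295 times and its JUN level 0.407 to 0.458 times. In the 3 vemurafenib clones these ratios were 0.508 to 1.31 for FOS, 0.595 to 1.09 for FOSB and 0.797 to 1.11 for JUN. In untreated cells they were 1.10, 1.12 and 0.99. FOSL1 moved the other way in 3 of the 4 clones under dabrafenib with trametinib, where replicate 3 was its highest library, and its ratios there ran from 1.01 in clone 13 to 2.58 in clone 10. The labels give no batch or date, and the study states that samples were put in random order before extraction. Whether something other than the cells sets these libraries apart was not tested.

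FOSL1 shows the contrast library by library. It stood at 69.0, 46.3 and 146 TPM in clone 10, 74.3 and 129 TPM in clone 11, and 50.6, 75.9 and 120.3 TPM in clone 12, in the order of their replicate numbers. In clone 13 it stood level at 138, 151 and 146 TPM. The replicates numbered 3 thus had FOSL1 above the 62.4 to 67.0 TPM of untreated cells in each of these clones, while their FOS ranged from 52.9 to 161 TPM. FOSL1 was the largest FOS family transcript in replicate 3 of clones 11, 12 and 13, at 42.8%, 43.3% and 61.6% of the family sum.

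Over the 23 libraries, each taken as its deviation from its own group mean, FOS had a Pearson r of 0.98 with FOSB, 0.95 with JUN, 0.92 with JUNB, 0.88 with ATF3 and 0.80 with JUND. It had 0.41 with FOSL2, 0.27 with MAFF, -0.67 with FOSL1 and 0.02 with BATF3, and FOSL1 had -0.79 with JUN. FOSL2 and MAFF had 0.78 with each other, which rests largely on clone 13. Its replicate 2 had the largest deviation of both genes, 0.69 for FOSL2 and 0.79 for MAFF. These are descriptions: the values of 1 library share its RNA, preparation and scaling, and clones 10 to 13 carry most of the spread.

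**Figure D4:**
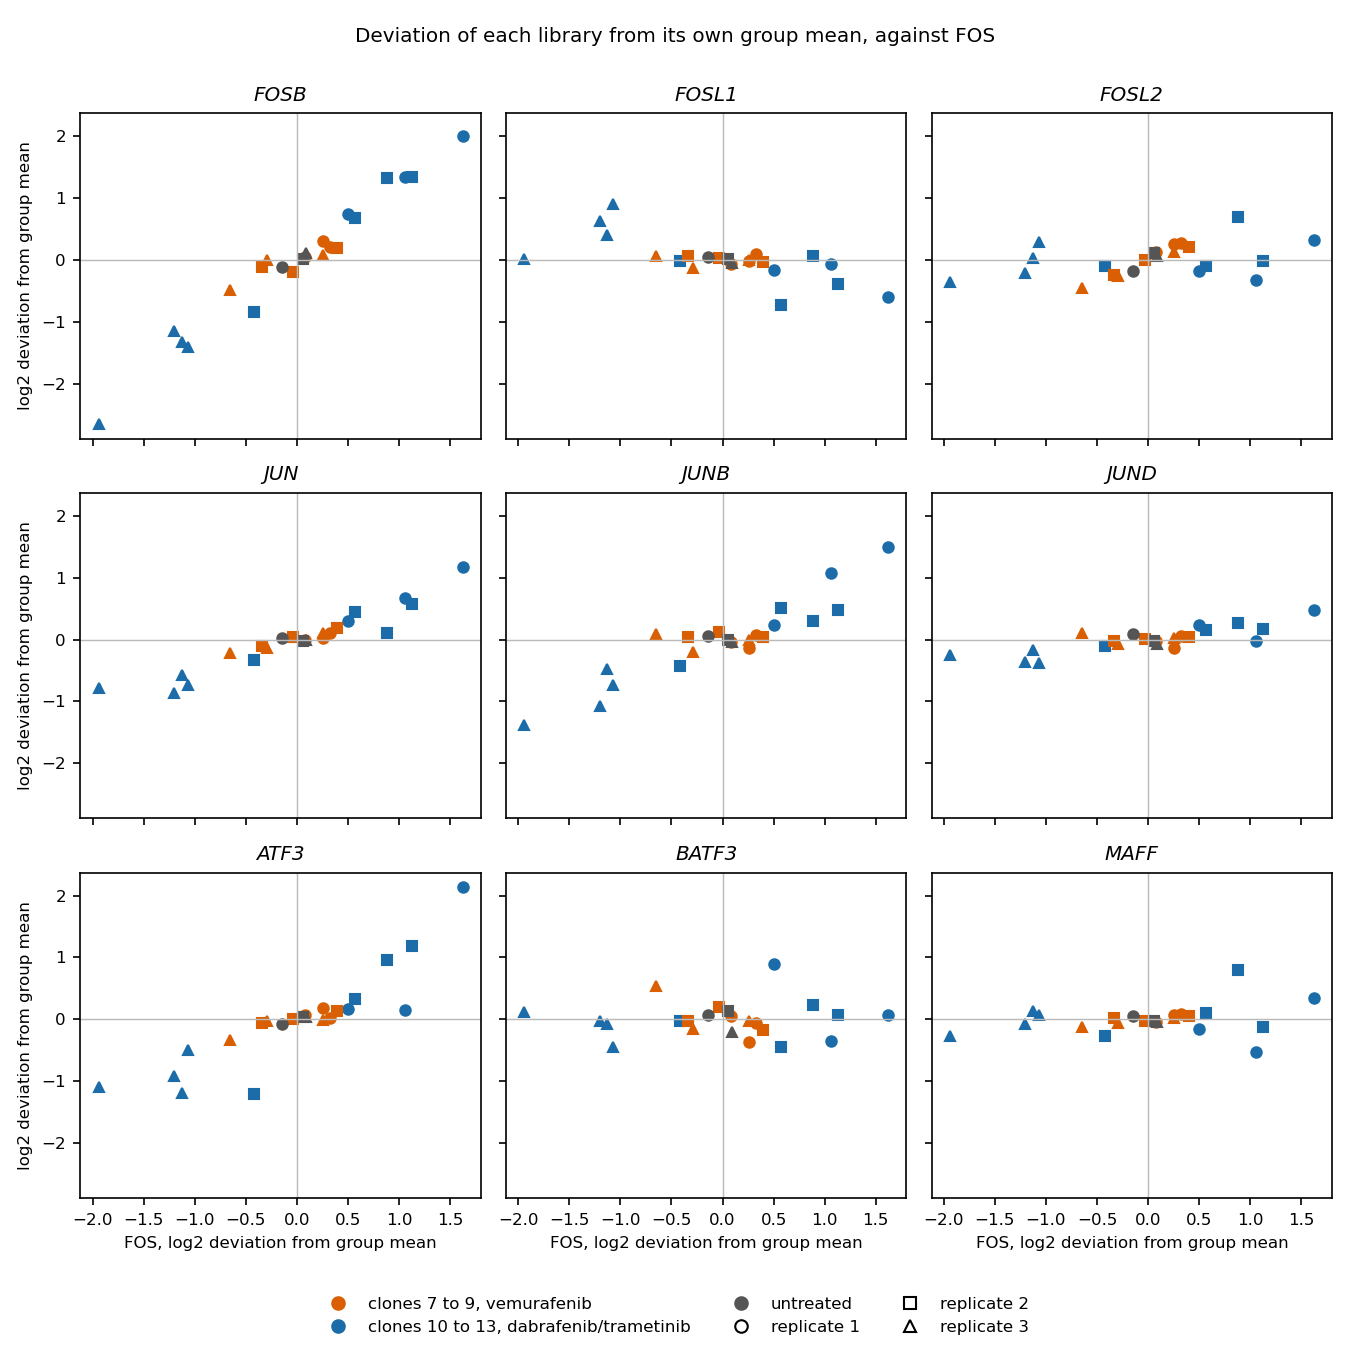
Deviation of each library from its own group mean for 9 members (log2, vertical) against that of FOS (log2, horizontal), with colours for the drug arm and symbols for the replicate number. FOSB, JUN, JUNB and ATF3 lie along rising lines, FOSL1 along a falling one (r = -0.67), and BATF3 shows no slope (r = 0.02).

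The genes whose deviations were most like those of FOS, among 11234 genes outside the family, were ZFP36 (r = 0.98), EGR1 (0.97), CD99L2 (0.96) and DUSP1 (0.96), of which ZFP36, EGR1 and DUSP1 are immediate early genes. For JUN they were ZFP36 (0.98), SOCS3 (0.97), SAT1 (0.96) and DUSP1 (0.96). Not every immediate early gene followed FOS. Over the 25 tested outside AP-1, r with FOS ran from 0.98 for ZFP36 to -0.48 for CYR61. MYC had 0.25, NR4A3 0.04 and CTGF -0.01. The summed level of 26 immediate early genes outside AP-1 was also lowest in replicate 3 of all 4 clones under dabrafenib with trametinib, at 0.574 to 0.736 times the other libraries. The sum of 14 heat shock and handling genes, which respond to stress during culture or harvest, was 0.890 to 1.42 times the others there, lowest in 1 clone and highest in 1. The sum of 15 MAPK output genes was 0.838 to 0.990 times the others. Their part in the low FOS levels was not tested.

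Over the 8 group means, another scale of likeness, FOS was most like ANKRD1 (r = 0.96), CFB (0.96), AMOTL1 (0.95) and MT1X (0.94) among 4927 genes. FOSL1 was most like IL7R (0.97), UBE2C (0.96), S100A10 (0.95) and SCO2 (0.95), and JUN was most like F2R (1.00), IRF9 (0.99), IGFBP3 (0.99) and SHISA5 (0.99). The 8 points share the untreated mean, which for JUN lies apart from the 7 clone means.

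The clones were compared with each other to ask how far resistant lines from 1 parent diverge. By the limma F test among the 7 clones, which required a range of at least 1 between clone means, 5 of 10 members differed, and 25.3% of all genes did. They were BATF3 (range 2.41, adjusted p = 9.87e-06), MAFF (range 1.66, adjusted p = 0.000266), FOSL1 (range 1.69, adjusted p = 0.000474), FOSL2 (range 1.42, adjusted p = 0.00206) and JUNB (range 1.85, adjusted p = 0.0405). The JUNB call was lost on leaving out any 1 of 15 libraries: each library of clones 7, 8, 9 and untreated cells, clone 12 replicate 2, or clone 13 replicate 2 or 3, with limma adjusted p up to 0.0712. FOS had a range of 1.69 and FOSB one of 2.02, as large as those called, yet neither passed the limma F test, with adjusted p of 0.268 and 0.212. JUN (0.81, adjusted p = 0.551) and ATF3 (1.32, adjusted p = 0.618) did not pass either, except ATF3 without clone 12 replicate 1, at 2.39 (adjusted p = 0.0199). JUND passed on p (0.0441) with a range of 0.75, under the minimum.

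In at least 1 of the 21 pairs of clones, 5 of 10 members differed, as did 27.6% of all genes. BATF3 differed in 9, FOSL1 in 7, MAFF in 4, FOSL2 in 3 and JUNB in 3, and the other 5 members in none by limma. BATF3 differed within both arms: clone 11, under dabrafenib with trametinib, was higher than clone 12 of the same arm by 2.41, and clone 8, under vemurafenib, was higher than clone 7 of the same arm by 1.72. FOSL1 was lower in clones 10 and 12 than in clone 8 by 1.68 and 1.69, and lower in clone 9 than in clone 8 by 1.11. MAFF was lower in clone 11 than in clone 10 by 1.66, and FOSL2 was higher there by 1.42. JUNB was lower in clone 13 than in clones 7 and 8 by 1.73 and 1.85. The pair with most member differences was clone 10 against clone 8, with 4 members, and 12.1% of all genes differed there.

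For the drug arms, the clone was the unit, with 4 clones under dabrafenib with trametinib and 3 under vemurafenib. No member was called by limma, and 0.0128% of all genes were. At an unadjusted p under 0.05 there were 4 of 10 members, FOS, FOSB, JUNB and FOSL1, and 14.4% of all genes. FOSB averaged 106 ± 8.98 TPM over the clone means under dabrafenib with trametinib (SD, n = 4) and 218 ± 17.8 TPM under vemurafenib (SD, n = 3), a log2 difference of -1.60 (SE 0.16, limma adjusted p = 0.0542). The SDs, SEs and p-values of the arms were computed from clone means alone. They do not show the wide spread of libraries inside clones. For FOSB the SD of log2 values was 1.22, 1.89, 1.73 and 2.29 in clones 10, 11, 12 and 13. It was 0.20, 0.43 and 0.10 in clones 7, 8 and 9. JUNB averaged 331 ± 74.2 TPM under dabrafenib with trametinib and 652 ± 98.3 TPM under vemurafenib, a difference of -1.21 (SE 0.21, limma adjusted p = 0.154). FOS averaged 324 ± 59.9 TPM under dabrafenib with trametinib and 571 ± 62.3 TPM under vemurafenib, a difference of -1.18 (SE 0.21, limma adjusted p = 0.154). The clone means of these 3 genes did not overlap between arms, those under dabrafenib with trametinib being lower, as in 7.3% of all genes. Those of the other 7 members overlapped. FOSL1 had -0.92 (SE 0.31, limma adjusted p = 0.274). FOSB was called on leaving out clone 7 replicate 2, clone 9 replicate 2, clone 10 replicate 1 or clone 10 replicate 2, with limma adjusted p down to 0.0401. The replicates numbered 3 bore on these values: without them, an alternative chosen after the data were seen, the difference of FOS was -0.49, of FOSB -0.69 and of JUNB -0.72, while FOSL1 had -1.23 (limma adjusted p of at least 0.237). The difference of JUN was -0.29 with all libraries and 0.10 without those replicates.

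Of 23 further zipper genes, relatives and possible partners of AP-1 proteins, 5 rose and none fell on average over the clones, while 10.9% of all genes tested rose and 7.91% fell, and the list had a median log2 fold change of 0.36. MAF, a large MAF protein, rose by 2.46, BATF2 by 2.33, CEBPD by 1.78 and JDP2, a repressor that pairs with JUN, by 1.76. BATF2 and JDP2 rose in all 7 clones. Of 33 kinases and regulators upstream of AP-1, 4 rose and 2 fell, with a median of 0.29. These shares lie near the 10.9% and 7.91% of all genes, so nothing is read from the counts. MAP2K6, a kinase that activates p38, rose by 2.52, and MAP3K8, a kinase that activates MEK, by 1.27. RPS6KA5, a kinase downstream of ERK and p38 also called MSK1, fell by 2.51, and MAP3K1, a kinase that feeds the JNK pathway, fell by 2.09, both in all 7 clones.

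Of 25 immediate early genes outside AP-1 that were tested, 13 rose and 6 fell, against 10.9% and 7.91% of all genes, with a median log2 fold change of 1.53. EGR1, a zinc finger factor induced by ERK and serum, averaged 137 to 269 TPM in the clones, against 8.52 ± 0.244 TPM in untreated cells (SD, n = 3), a rise of 4.18. GADD45B, a stress sensor, rose by 3.82, DUSP1, a phosphatase of p38 and JNK, by 3.61, and ZFP36, a protein that promotes decay of AU-rich transcripts, by 3.42. The 6 that fell were EGR3, NR4A3, NR4A1, MYC, BTG1 and IER5. Of 15 MAPK output genes, feedback regulators and targets of ERK, 8 fell and 1 rose, against 7.91% and 10.9% of all genes, with a median of -1.04. ETV4 fell by 4.15, SPRY2 by 3.51, DUSP4 by 3.43 and SPRY4 by 3.00, and EPHA2, the only one that rose, had 2.17.

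Of 29 tested genes known as AP-1 targets, 17 rose and 1 fell, against 10.9% and 7.91% of all genes, with a median of 1.63. CCL2, a chemokine, averaged 48.9 to 307 TPM in the clones, against 0.434 ± 0.0373 TPM in untreated cells (SD, n = 3), a rise of 6.77. IL6, a cytokine, rose by 6.34 and MMP2, a matrix metalloprotease, by 5.93. PLAU, urokinase, was the one that fell, by 2.64, and it fell in all 7 clones. Whether AP-1 acts on these genes was not measured. Of 14 heat shock and handling genes 2 rose and none fell, DNAJB4 by 1.62 and HSPB1 by 1.04, with a median of 0.01, and the share that rose lies near the 10.9% of all genes. HSPB1 lost its call without untreated replicate 2 or 3, falling just under the fold minimum, at 0.99 without replicate 3.

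The labelled cell type was checked against markers. All 8 melanocyte markers were well above 0 in untreated cells and fell in the clones, and their sum was 30.8 to 479 TPM in clone libraries and 12678 to 13143 TPM in untreated libraries. SOX10 had at most 14.1 TPM in clone libraries. Of 9 fibroblast markers 8 were tested and all 8 rose, with sums of 2180 to 8025 TPM in clone libraries and 59.9 to 69.3 TPM in untreated libraries, and THY1 had at most 0.737 TPM in any library. No endothelial marker was called among 3 tested, and KRT18 alone rose among 4 keratinocyte markers tested, while KRT5 had at most 0.0591 TPM. Among 3 immune markers tested CSF1R rose and FCER1G fell on average over the clones. The part of these marker shifts in the AP-1 levels was not tested.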

How the data were processed

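The deposited table held 1 value per gene and library, and every column was matched to a sample through its label. Although the table is named as counts, the authors' values were read as TPM, since all columns have 1 common total. Per the submitters' processing notes, kallisto and hg19 were used; no version, transcript annotation or gene-level summing step is named there.

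TPM were scaled by a trimmed mean of log ratios (trimming 30% on the log ratios and 5% on the levels at each end, 10822 genes, factors from 0.877 to 1.35). Genes that reached a TPM of 1 in 2 or more libraries were tested as log2(scaled TPM + 1) in 1 limma fit (version 3.58.1, R 4.3.3, moderated variances with a trend) of 8 groups, for the mean of the 7 clones and each clone against untreated cells, the 21 pairs of clones, and an F test with 6 degrees of freedom. For the drug arms, limma compared mean log2 values of 4 and 3 clones. P-values were adjusted by Benjamini-Hochberg over all 15657 genes. The fit was tested on simulated data with 1 spread per gene in all groups. That setting does not cover the unequal spread of FOS, FOSB and ATF3. Alternatives were the values as deposited, another scaling, a pseudocount of 0.1, no filter, robust moderation, a replicate block and leaving out libraries or clones.

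Named genes were all members, up to 4 genes per further list with the largest called change, and the 4 genes most like FOS, FOSL1 and JUN. The genes that fell among the immediate early genes, EPHA2 and PLAU, were named after their values were seen. The members and lists were chosen with earlier results of these data known. Some genes that this rule names are not reported here. One listed regulator, MRTFA, was not matched and not analysed here. No 2 libraries held identical values.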

Additional observations from a re-analysis of the deposited data

Results flagged for a closer look

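In JUN, the mean of clone 9 lay apart above the means of the other 6 clones, with a gap to the nearest of 0.579 of the whole range over 7 clones. In JUND, the mean of clone 9 lay apart in the same way, at 0.625 of the range. Groups of this kind were examined 20 times, and chance marks about 1 in 20. By the limma F test among the 7 clones, neither gene was called.

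The effects of the clones over untreated cells differed between clones in BATF3 by up to 2.41 on the log2 scale, in JUNB by up to 1.85, in FOSL1 by up to 1.69, in MAFF by up to 1.66 and in FOSL2 by up to 1.42, each past the limma F test. In BATF3 the lowest and the highest clone, 12 and 11, were kept in the same drugs.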

How the results depend on the processing

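No called result changed sign under any alternative run, but values that were not called did. With the values as deposited, MAFF in clone 10 became 0.29, against -0.01, and the arm differences of JUND and BATF3 became 0.040 and 0.081, against -0.12 and -0.06. In the arm comparison, BATF3 was 0.47, 0.018 and 0.34 without clone 8, 10 or 12, JUND 0.089 without clone 9, and FOSL2 0.051 without clone 10, against -0.17. Without the replicates numbered 3, the arm differences of JUN, JUND, ATF3 and BATF3 were 0.10, 0.057, 0.051 and 0.060, against -0.29, -0.12, -0.50 and -0.06, and FOSL1 was -0.23 in clone 10 and -0.094 in clone 12, against 0.25 in both. Without clone 10 replicate 1 and clone 13 replicate 3, MAFF in clone 10 was 0.084, while the arm difference of BATF3 kept its sign, at -0.18. Leaving out 1 library at a time, ATF3 ran from -0.14 to 2.24 in clone 11 and from -0.61 to 1.06 in clone 12, FOSL1 from -0.20 to 0.62 in clone 10 and from -0.068 to 0.55 in clone 12, MAFF in clone 10 from -0.053 to 0.084, and the arm difference of BATF3 from -0.17 to 0.027. In the comparison of the drug arms, where 0 members were called, 1 member, FOSB, was called with a median of ratios scaling (adjusted p = 0.0496) and without clone 11 (adjusted p = 0.0280), and leaving out 1 library at a time gave 0 to 1. Each other count of members called stayed within 1.5 times its value under each alternative run. Using the values as deposited moved the median over all genes to 0.14 on the log2 scale, against -0.01 after scaling, and JUNB among the clones (adjusted p = 0.0703) and FCER1G (-0.97) then lost their calls, while FOSL1 over all clones (1.13), FOSB in clone 11 (2.63, adjusted p = 0.0456) and ATF3 in clone 13 (1.72, adjusted p = 0.0426) gained one. Without the filter, ATF3 over all clones (adjusted p = 0.0852), ATF3 in clone 8 (0.0757), FOS in clone 10 (0.0726), FOSB in clone 10 (0.0798) and JUNB among the clones (0.101) lost theirs. The cause was not tested. In analyses chosen after the data were seen, without the replicates numbered 3, FOS and FOSB were called in clones 11, 12 and 13 as well, with FOS at 2.35, 2.23 and 2.28, and JUNB among the clones was not called (adjusted p = 0.252). Without clone 10 replicate 1 and clone 13 replicate 3, 9 members were called in clone 13, against 6 with all libraries.

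Same-numbered libraries were not consistently alike: their deviations had correlations from -0.62 to 0.42 over 77 pairs, with a median of 0.014. Of these pairs 28 were above 0.1, the median over 154 pairs of different number was -0.0089, and 9 of 23 libraries were most like libraries of their own number. Each correlation is taken over many genes, so it does not decide whether the number bears on single members. With a replicate block, 8 members were called over all clones, the same number as without it, and 4 further calls appeared: FOSB in clone 11 (2.68, adjusted p = 0.0171), FOS in clone 12 (1.58, adjusted p = 0.0325), FOSB in clone 12 (1.98, adjusted p = 0.0392) and ATF3 in clone 13 (1.54, adjusted p = 0.0460). All p-values here are from limma. With 2 or 3 libraries per group and a within-group SD near 1 for FOS, FOSB and ATF3, single-clone effects of these genes are known only roughly, and the unknown depth leaves low values such as BATF3 in untreated cells without a counting error.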
